A study of Mus musculus with 18 samples.

Results

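The comparison described here asks which genes apilimod changed 3 h after stimulation. RAW cells, a mouse macrophage cell line kept in DMEM, were stimulated with R848, which activates Toll-like receptor 7 in mouse cells. The R848 arm received R848 (labelled 0.1 mM, which is high for such an agonist, so the unit may be wrong), the R848+apilimod arm R848 with apilimod at 1 uM, and the R848+API09 arm R848 with API09 at 1 uM. API09 is named in the series design as an analog of apilimod without activity. Members were the 3 stimulated arrays of 3 h out of 18 Affymetrix arrays, and all 12257 genes that passed a filter on dim signals are described. The R848 and R848+API09 arrays together were the controls, so each difference is 1 array against the mean of 2. A medium array of the same hour gives the unstimulated level. Each arm had a single array at 3 h, and nothing in the labels ties the arrays to separate cultures. All p-values thus rest on the spread between arrays, which may be technical.

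Apilimod inhibits PIKfyve, the lipid kinase that makes PI(3,5)P2 on endosomes and lysosomes, and came to notice as an inhibitor of the production of IL-12 and IL-23. Loss of PIKfyve activity swells endosomes and lysosomes and disturbs traffic through them. Toll-like receptor 7 signals from endosomes through MyD88 to NF-kB, MAP kinases and interferon regulatory factors. Lysosomal genes in turn are driven by the MiT/TFE transcription factors, which folliculin and the Rag GTPases hold in check at the lysosomal surface.

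Values are differences of log2(intensity + 16), given with their standard error, and a gene was called at an adjusted p below 0.05 (limma, Benjamini-Hochberg over all 12257 genes). The spread came from 5 pairs of arrays, namely R848 with R848+API09 at each of 4 hours and the 2 medium arrays at 0 h. At 3 h the median absolute difference over all genes was 0.07 between the R848+API09 and R848 arrays and 0.11 between the R848+apilimod array and the controls, and the SDs over genes were 0.11 and 0.33. The median signal on the 4 arrays of 3 h was 17.8 to 18.1. Control probe sets for 18S ribosomal RNA were 0.56 log2 units brighter on the R848+API09 array and 0.92 brighter on the R848+apilimod array than on the R848 array, and the part of that difference in the results was not tested. Of the arrays that gave the spread, R848+API09 at 22 h stood apart, with an upper quartile of 87.0 against 103.6 to 118.6 on the others. All 10 macrophage markers checked, among them Adgre1, Csf1r and Lyz2, were above the filter level of 18.1. Their summed intensity was 49720 on R848, 49200 on R848+API09 and 49620 on R848+apilimod. A sum mostly reflects the brightest markers, and Itgam, another of the 10, was itself called lower with apilimod (-0.59). The summed markers of each of 8 other cell types reached at most 116.0 on any of the 3 stimulated arrays. Passing the filter level alone says little, since some markers of other cell types also passed it on at least 1 array of 3 h. These were 3 of 5 for T cells and 3 of 6 for epithelial cells, but 0 of 2 for erythroid cells. In a culture measured in bulk, fewer cells of one kind and less RNA per cell cannot be told apart.

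Apilimod changed 1128 genes at 3 h (9.2% of the genes tested), 622 higher and 506 lower, which is 5.07% and 4.13%. Of these, 166 rose (1.35%) and 105 fell (0.857%) by at least 1 log2 unit, and 23 rose and 16 fell by at least 2. Every called gene differed in the same direction from the R848 array and from the R848+API09 array. The call uses the mean of these 2 arrays and a spread that includes their difference, so this was largely built in. Over all genes, called or not, the R848+apilimod value lay above both control arrays for 31.9% and below both for 47.9%. With the R848+API09 array as the only control 464 genes rose and 317 fell, and with the R848 array as the only control 450 and 346. Of 158 genes called and named in the text, 12 lost their call with either control alone, namely Atp6v0d2, Cebpa, Cry1, Eea1, Gch1, Il18, Pikfyve, Rel, Tbk1, Tfeb, Tlr3 and Tlr7. A further 5 (Atg12, Atp6v0a1, Ccr1, Il1rap and Lipg) lost it with R848 as the only control, and 4 (Hk2, Ifnb1, Sqstm1 and Tfe3) with R848+API09. The number called also depended on how the spread was estimated. Without the R848+API09 array at 22 h, or without the R848 array of that hour, it was 924 higher and 945 lower, so that rises no longer outnumbered falls.

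**Figure D1:**
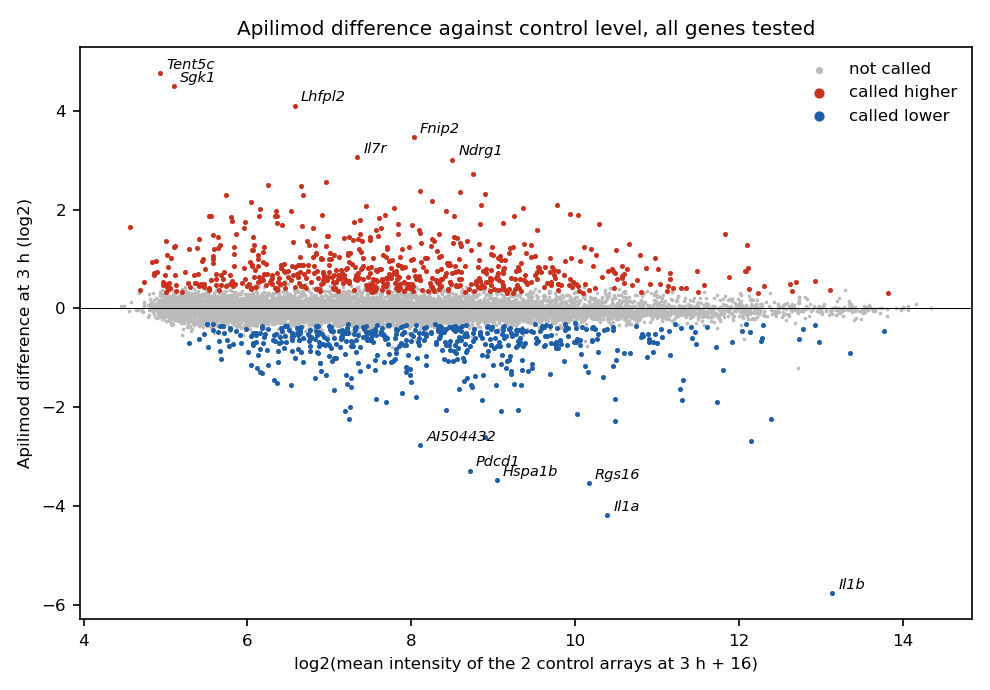
Apilimod difference at 3 h (log2 units, vertical axis) for each of the 12257 genes tested against the level on the control arrays (log2 of the mean intensity plus 16, horizontal axis). Red points are the 622 genes called higher, blue points the 506 called lower and grey points the genes not called. Il1b lies lowest at -5.77 and Tent5c highest at 4.76.

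The largest rise at the pseudocount used was in a gene that was dim without apilimod. Tent5c, which encodes a non-canonical poly(A) polymerase, read 12.1 on medium, 14.8 on R848, 14.5 on R848+API09 and 817 on R848+apilimod. It was near background on 3 of the arrays and bright on the last (difference 4.76 ± 0.14). The controls of Tent5c lay below the filter level of 18.1, so the size of its rise depends on the pseudocount: with 64 in place of 16 it was 3.49, below the 3.56 of Lhfpl2. Sgk1, a serum- and glucocorticoid-inducible kinase, read 76.0 on medium, 19.6 on R848, 17.1 on R848+API09 and 758.5 on R848+apilimod. Its controls lay near the filter level, so the sizes of its differences depend on the pseudocount too. R848 lowered Sgk1 (-1.42 ± 0.13), and the level with apilimod lay above the unstimulated one. The tetraspan protein gene Lhfpl2 did the same, at 304 on medium, 77.5 and 81.6 on the controls and 1629 with apilimod (4.11 ± 0.10). Of the 4 probe sets kept for Lhfpl2 the brightest gave that value, and the lowest gave -0.14. Fnip2, a partner of folliculin, read 395 on medium, 242 and 248 on the controls and 2866 with apilimod (3.46 ± 0.10). The controls of Fnip2 lay below medium, and the array with apilimod far above it.

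The other 8 of the 12 largest rises were of genes with varied roles. Il7r, the interleukin-7 receptor alpha chain, read 142 and 149.5 on the controls and 1330 with apilimod (3.06 ± 0.22). Ndrg1, a gene known for its response to hypoxia and other stresses, went from 325 and 367 to 2898 (3.01 ± 0.11). The polo-like kinase gene Plk2 read 192 on medium, 413 and 415 on the controls and 2825 with apilimod (2.72 ± 0.10). It had already risen with R848 (1.05 ± 0.10) and rose further. Fabp4, a fatty acid-binding protein of macrophages and fat cells, read 23.1 on medium, 93.7 and 122 on the controls and 709 with apilimod (2.56 ± 0.16), while the lowest of its 3 probe sets was at 0.47. Cd207, which encodes the lectin langerin, stood at 58.4 and 61.6 against 416 (2.51 ± 0.09). F10, which encodes coagulation factor X, stood at 84.0 and 84.7 against 541 (2.47 ± 0.16). The translational regulator gene Cpeb4 (2.37 ± 0.14) and the cytoskeletal linker gene Gas2l3 (2.35 ± 0.13) completed the 12 largest rises. The 12 were chosen among called genes whose R848+apilimod value lay outside both controls, so none of them could overlap its controls.

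The largest falls are given with the medium level of each gene, which shares no array with the apilimod difference. Il1b, which encodes interleukin-1 beta, read 43.5 on medium, 9114 on R848, 8932 on R848+API09 and 150 with apilimod. The level with apilimod was thus far nearer to the unstimulated than to the stimulated one (-5.77 ± 0.17). Il1a, which encodes interleukin-1 alpha, read 7.6 on medium, 1328 on both controls and 57.6 with apilimod (-4.19 ± 0.18). Ccl5, a T cell-attracting chemokine gene, read 118 on medium, 4359 and 4723 on the controls and 692 with apilimod (-2.69 ± 0.10). The pleckstrin homology-like gene Phlda1 read 107 on medium, 1038 and 1021 on the controls and 220 with apilimod (-2.15 ± 0.09). For these 4 genes the array with apilimod lay between medium and the controls.

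Most of the other leading falls went below the unstimulated level. Rgs16, a brake on G-protein signalling, read 316 on medium, 1113 and 1154 on the controls and 82.6 with apilimod (-3.54 ± 0.13). Set against medium, the R848+apilimod array was at -1.75 for Rgs16. The inducible heat shock gene Hspa1b, whose near-identical neighbour Hspa1a may share its signal, read 166 on medium, 543 and 480 on the controls and 31.4 with apilimod (-3.47 ± 0.14). Pdcd1, the gene of the inhibitory receptor PD-1, read 54.6 on medium, 388 and 418 on the controls and 26.9 with apilimod (-3.29 ± 0.12). Id3, an inhibitor of helix-loop-helix factors, read 242.5 on medium, 450.5 and 476.5 on the controls and 62.5 with apilimod (-2.61 ± 0.13). Cited2, a CBP-binding regulator of hypoxia signalling, was bright on medium at 4536, changed little with R848 (5384 and 5371) and fell to 1117 with apilimod (-2.25 ± 0.08). The transcript AI504432 fell from 250 and 270.0 to 24.5, below its medium value of 89.5 (-2.77 ± 0.12). Shisa3 (154 and 117 to 15.6, against 12.2 on medium, -2.25 ± 0.18) and the interferon-stimulated gene Ifit1, described below, completed the 12 largest falls. Shisa3 with apilimod did not differ beyond the threshold from medium (0.17), and both readings were below the filter level.

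**Figure D2:**
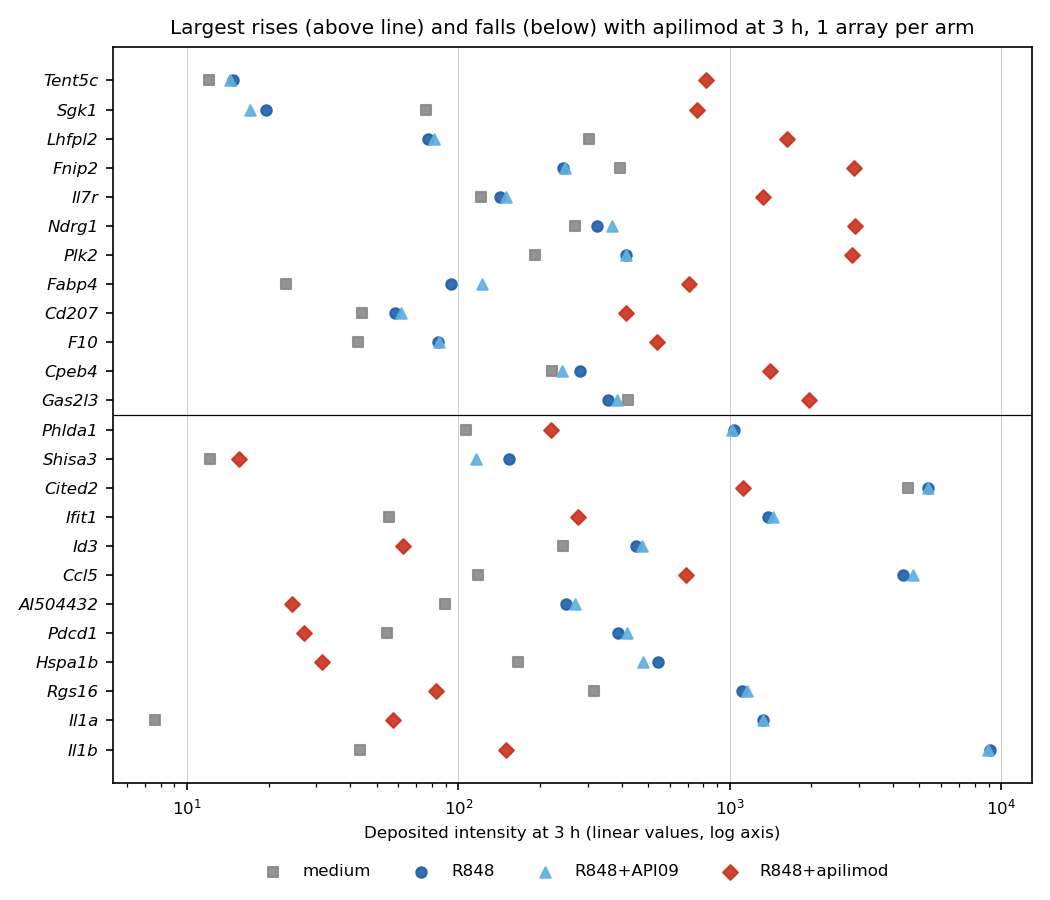
Deposited intensity (linear values on a log axis) of the 12 genes with the largest rises, above the line, and the 12 with the largest falls, below it, with 1 point for each array of 3 h. The blue R848 and R848+API09 points lie close together. The red R848+apilimod point lies outside both for each of the 24 genes, which were chosen on that condition. For Il1b it sits at 150 against 9114 and 8932.

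The counts given for each list below are to be read beside the 5.07% of all genes tested that rose and the 4.13% that fell. Cytokine genes moved in both directions at this hour. Of 13 genes tested of the IL-1 family and inflammasome list, 4 fell and 1 rose, and the list median was -0.11 against -0.03 over all genes. The natural antagonist of the 2 interleukin-1 cytokines, Il1rn, read 733 on medium, 4329 and 4259 on the controls and 7280 with apilimod, so it rose (0.76 ± 0.11) while both agonist genes fell. The receptor accessory chain gene Il1rap fell (-0.74 ± 0.15), as did Il18 (-0.50 ± 0.13). The number that fell was 2 with R848 as the only control. Of 5 genes encoding subunits of the IL-12 family 3 could be tested. Il12b, which encodes the p40 chain of both IL-12 and IL-23, was dim throughout, at 10.4 on medium, 36.6 on R848, 33.8 on R848+API09 and 9.2 with apilimod. It fell (-1.02 ± 0.12), and both the apilimod and the medium reading were below the filter level. Ebi3, whose product pairs in IL-27 and in IL-35, fell by 0.60 ± 0.10, and Il23a was at -0.13 ± 0.10 and was not called.

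Among 13 other inflammatory cytokine genes 5 rose and 3 fell, with a median of 0.07. Il6 read 5.5 on medium, 62.8 and 65.8 on the controls and 13.3 with apilimod (-1.45 ± 0.10). Il15, which sustains natural killer and memory T cells, fell from 134 and 141 to 41.6 (-1.42 ± 0.14), against 44.1 on medium. Il10, which encodes an anti-inflammatory cytokine, went the other way, from 156.5 and 149 to 420 (1.37 ± 0.09). Csf3, the granulocyte colony-stimulating factor gene, rose from 603 and 543.5 to 1354 (1.22 ± 0.12). The EGF receptor ligand gene Hbegf rose from 66.8 and 66.0 to 287 (1.88 ± 0.11). Tnf read 311 on medium, 7827 and 7328 on the controls and 7408 with apilimod. The difference of Tnf was -0.03 ± 0.11, with a 95% interval of -0.28 to 0.22, and its value lay between the controls.

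Chemokines were lower or not called. Of 14 tested, 6 fell, with a median of -0.15. Besides Ccl5, the interferon-induced CXCR3 ligand genes fell. Cxcl10 read 375 on medium, 1406 and 1439 on the controls and 388 with apilimod (-1.83 ± 0.11), while Cxcl11 went from 154 and 145 to 52.9 (-1.26 ± 0.17). The monocyte attractants Ccl4 (-0.90 ± 0.11) and Ccl9 (-0.46 ± 0.08) fell less and stayed above medium, Ccl4 at 5595 against 553.

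Interferon-stimulated genes were lower as a group. Of 25 tested, 14 fell, the median was -0.56, and all 25 differences were below 0. Ifit1, which binds foreign RNA caps, read 55.6 on medium, 1389 on R848, 1444 on R848+API09 and 277 with apilimod (-2.29 ± 0.16). Ifit3 read 56.9 on medium, 459 and 600 on the controls and 112 with apilimod (-2.08 ± 0.17). The GTPase gene Gbp3 (-1.24 ± 0.12), Ifit2 (-1.14 ± 0.20) and the antiviral gene Mx2 (-1.08 ± 0.11) also fell. In all 5 the reading with apilimod lay above that of medium and below both controls. Ifnb1, which encodes interferon beta and lies upstream of these genes, read 11.5 on medium, 40.7 and 34.9 on the controls and 18.5 with apilimod (-0.64 ± 0.13). Among the receptors and regulatory factors of the interferon system 2 of 11 genes fell and 1 rose, namely the kinase gene Tbk1 (0.37 ± 0.09). The other fall was that of Irf5 (-0.76 ± 0.10), whose second probe set was at 0.15.

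The promoter of Ifit1 is shown because it holds the letters by which interferon-stimulated genes are usually recognised. The motif AAANNGAAA, a core of the interferon-stimulated response element, was searched on both strands of the RefSeq promoters (250 bases before to 50 after the start, GRCm38.p6). It stood in 14 of the 18 list members with a promoter in the table, in 9.45% of all tested genes with one and in 10.6% of all promoters. Capitals mark the 2 matches in the 250 bases before the start of Ifit1 (chr19:34640639-34640888, plus strand). A match is a description of the letters and not a bound site.
Ifit1: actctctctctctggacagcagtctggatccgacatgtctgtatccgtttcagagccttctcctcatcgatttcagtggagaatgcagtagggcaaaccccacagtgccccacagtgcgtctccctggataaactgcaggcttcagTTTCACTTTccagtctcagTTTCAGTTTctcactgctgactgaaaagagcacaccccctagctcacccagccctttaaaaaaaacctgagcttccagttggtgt

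Genes of NF-kB and Toll-like receptor signalling moved in both directions. Of 16 NF-kB subunits and feedback inhibitors 6 fell and 2 rose, with a median of -0.15, and the number that fell was 3 with either control alone. The subunit gene Rel fell from 536 and 520.5 to 304 (-0.77 ± 0.18) and Nfkb2 from 552 and 561.5 to 370 (-0.57 ± 0.10). The other probe set of Nfkb2 was at -0.05, and its call was lost with the mean over probe sets (-0.31, limma adjusted p = 0.19). Bcl3, an atypical inhibitor protein gene, fell by 0.53 ± 0.10, and Nfkbie was at -0.76 ± 0.22 and was not called. Tnfaip3, the deubiquitinase gene A20 that ends NF-kB signalling, rose instead, from 535 and 561 to 1103 (0.99 ± 0.14). Of 17 genes of Toll-like receptor signalling 2 rose and 1 fell. The counts were 2 and 4 under quantile normalization, 3 and 4 without the arrays of 22 h, and 1 and 0 with either control alone. Tlr7, the receptor for R848, read 526 on medium, 404 and 410 on the controls and 581 with apilimod (0.50 ± 0.12). R848 by itself gave Tlr7 a difference of -0.36 ± 0.12 from medium, which was not called. The kinase gene Irak2 rose (0.58 ± 0.10), Tlr3 fell from 47.0 on both controls to 31.4 (-0.41 ± 0.11), and Myd88 was at -0.37 ± 0.11 and was not called.

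Immediate-early genes and the inhibitors that follow MAP kinase signalling were split. Of 22 immediate-early transcription factor genes 10 fell and 3 rose, with a median of -0.27. Fos read 3360 on medium, 2594 and 2451 on the controls and 688 with apilimod (-1.85 ± 0.15). Ier2 fell from 790 and 830 to 312 (-1.33 ± 0.16), and Egr3 from 252 and 224 to 91.9 (-1.23 ± 0.12), although the second probe set of Egr3 was at 0.00. The stress-induced repressor gene Atf3 rose from 688 and 768 to 2226 (1.59 ± 0.14), and Maff, a small Maf protein gene, from 160.5 and 139.5 to 457 (1.51 ± 0.12). Of 21 MAP kinase phosphatases and feedback inhibitors 8 fell and 3 rose. Besides Rgs16, the phosphatase genes Dusp2 (518 and 496 to 163, -1.55 ± 0.11), Dusp6 (70.0 and 62.9 to 12.8, -1.51 ± 0.14) and Dusp5 (675 and 674 to 271, -1.27 ± 0.15) fell. Dusp4 rose from 667 and 633 to 1618 (1.29 ± 0.13).

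The genes around folliculin and the MiT/TFE factors held the 2 largest rises among the lysosome-related lists. Of 26 tested 10 rose and 2 fell, with a median of 0.04. After Fnip2 came its relative Fnip1, at 264 on medium, 189 and 159 on the controls and 553 with apilimod (1.59 ± 0.12, lowest of 3 probe sets 0.64). Gpnmb, a glycoprotein of lysosomes and a known MiT/TFE target, read 5331 on medium, 4347 and 4376 on the controls and 10690 with apilimod (1.29 ± 0.10). Flcn itself rose from 97.6 and 99.5 to 235 (1.13 ± 0.10). The 3 transcription factors moved apart: Mitf fell from 1116 and 1135 to 451 (-1.29 ± 0.09), Tfe3 from 423 and 412 to 291 (-0.50 ± 0.10), and Tfeb rose from 119 and 124 to 159 (0.35 ± 0.08). The called rise of Tfeb was small beside the others.

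Lysosomal and proton pump genes that changed were all higher. Of 16 vacuolar ATPase subunits 9 rose, with a median of 0.37. The counts were 5 with R848+API09 as the only control and 4 with R848 as the only control. Atp6v1d, a central stalk subunit, read 449 on medium, 424 and 449 on the controls and 871 with apilimod (0.97 ± 0.09). Atp6v1a, the catalytic subunit, read 2114 on medium, 1820 and 1872 on the controls and 3247 with apilimod (0.81 ± 0.09). Atp6v0d2, an isoform of macrophages and osteoclasts, was at 188 and 210 against 363 (0.82 ± 0.20), Atp6v0a1 at 0.64 ± 0.13 and Atp6v1c1 at 0.63 ± 0.09. Other probe sets of Atp6v0a1 went down to -0.04. Of 40 lysosomal hydrolases and membrane proteins 12 rose, with a median of 0.22, and 19 rose when the arrays of 22 h were left out of the spread. Clcn7, the lysosomal chloride-proton exchanger gene, read 141 on medium, 134 and 146 on the controls and 389 with apilimod (1.38 ± 0.12). The calcium channel gene Mcoln2 went from 284 and 306 to 780 (1.36 ± 0.15), and the alpha-galactosidase gene Gla from 363 and 381 to 960 (1.33 ± 0.08). The protease gene Ctsk (1.07 ± 0.13) and Pip4p1, a lysosomal lipid phosphatase gene (1.05 ± 0.09), rose as well. Mcoln1, the channel gene that PI(3,5)P2 is known to open, was at 0.25 ± 0.09 and was not called.

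Promoters of 2 of these genes are shown because they hold TCACGTG, the E-box core of the CLEAR element that MiT/TFE factors are known to bind. On either strand it stood in 12 of 36 lysosomal genes, 4 of 10 pump subunits and 5 of 25 genes of the folliculin list with a promoter in the table. Of the called members with a promoter it stood in 4 of 10, 3 of 5 and 2 of 11. The share was 6.69% of all tested genes with a promoter and 3.77% of all promoters. Capitals mark the match, which begins 16 bases before the start of Clcn7 (chr17:25133141-25133390, plus strand) and 75 bases before that of Fnip1 (chr11:54437929-54438178, plus strand).
Clcn7: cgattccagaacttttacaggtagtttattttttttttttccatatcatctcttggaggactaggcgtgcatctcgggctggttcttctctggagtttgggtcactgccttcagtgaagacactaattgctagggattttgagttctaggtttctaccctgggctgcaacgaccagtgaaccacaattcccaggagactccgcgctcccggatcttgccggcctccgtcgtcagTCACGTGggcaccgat
Fnip1: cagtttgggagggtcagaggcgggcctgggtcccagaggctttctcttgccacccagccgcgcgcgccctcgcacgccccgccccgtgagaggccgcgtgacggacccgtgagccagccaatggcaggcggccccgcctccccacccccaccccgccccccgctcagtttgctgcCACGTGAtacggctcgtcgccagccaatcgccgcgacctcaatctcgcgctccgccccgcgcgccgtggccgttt

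Some genes around the target kinase were higher, and most were not called. Of 26 genes for the PIKfyve complex and endosomal phosphoinositide enzymes 4 rose, against 5.07% of all genes tested, with a median of 0.10. With either control alone 2 rose. Pikfyve read 88.3 on medium, 78.4 and 74.8 on the controls and 122 with apilimod (0.57 ± 0.15), and its other probe set was at 0.14. Pip4k2a, a phosphatidylinositol-phosphate kinase gene, was at 333 and 317 against 523.5 (0.66 ± 0.11), the endosomal tether gene Eea1 at 0.54 ± 0.14 and the retromer gene Vps26a at 0.49 ± 0.10. Of 30 autophagy genes 6 rose, with a median of 0.04. Among them were Atg9b (0.75 ± 0.13, with a second probe set at -0.03), Uvrag (0.69 ± 0.10), the receptor genes Nbr1 (0.59 ± 0.10) and Sqstm1 (0.50 ± 0.10), and Atg12 (0.51 ± 0.11). Sqstm1 had risen with R848 from 2713 to 6239 and 6358 and stood at 8928 with apilimod.

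Sterol synthesis genes rose together. Of 22 genes for cholesterol synthesis and uptake 15 rose, with a median of 0.91 against -0.03 over all genes. Hmgcs1, which encodes the synthase before the rate-limiting reductase, read 517 on medium, 635 on R848, 649 on R848+API09 and 2666 with apilimod (2.03 ± 0.09). Insig1, the sterol feedback protein gene, went from 166 and 192 to 676 (1.83 ± 0.12) and Mvd, a mevalonate pathway enzyme gene, from 148 and 152 to 557 (1.79 ± 0.12). Fdft1, the squalene synthase gene (1.41 ± 0.09, lowest of 4 probe sets 0.13), and the sterol oxidase gene Msmo1 (1.25 ± 0.10) followed. None of these 5 overlapped its controls, which was largely built in because they were chosen for the largest differences of the list. Of 15 fatty acid synthesis genes 2 rose, Acsl3 (0.86 ± 0.10) and Fasn (0.82 ± 0.12), while Scd1 was at 0.28 ± 0.12 and was not called. Of 6 genes on the list of the oxysterol receptor LXR and its targets 3 fell. They were Mylip, which promotes decay of the LDL receptor (233 and 208.5 to 56.3, -1.71 ± 0.13), and the cholesterol exporter genes Abca1 (358 and 341 to 159, -1.06 ± 0.15) and Abcg1 (219 and 224 to 149, -0.53 ± 0.09). The other probe set of Abcg1 was at -0.003, and its call was lost with the mean over probe sets (-0.27, limma adjusted p = 0.0959).

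The promoter of Hmgcs1 is shown as the leading sterol gene whose promoter holds TCACNCCAC, the sterol regulatory element read by SREBP factors. It was the only one of 18 cholesterol genes with a promoter in the table to hold these letters, against 1.43% of all tested genes and 1.24% of all promoters. Capitals mark the match 137 bases before the start (chr13:119690101-119690350, plus strand).
Hmgcs1: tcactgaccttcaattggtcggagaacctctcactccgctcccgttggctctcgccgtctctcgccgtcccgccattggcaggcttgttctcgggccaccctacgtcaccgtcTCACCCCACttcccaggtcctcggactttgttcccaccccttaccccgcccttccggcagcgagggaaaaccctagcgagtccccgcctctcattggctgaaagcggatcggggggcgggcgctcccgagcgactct

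Of 17 genes of lipid carriage and storage 6 rose and the others were not called, with a median of 0.11. After Fabp4 came the droplet protein gene Hilpda (210 and 202 to 888, 2.03 ± 0.11), Fabp3 (28.7 and 33.5 to 155, 1.86 ± 0.14, other probe set 0.10), Plin2, which coats lipid droplets (0.83 ± 0.12), and Fabp5 (0.83 ± 0.09).

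Stress genes of the amino acid response were mostly higher. Of 30 genes of the ATF4 list 17 rose and 1 fell, with a median of 0.45. Ddit4, which restrains mTORC1, read 59.3 on medium, 61.0 and 48.2 on the controls and 241 with apilimod (1.87 ± 0.17). Ddit3, the gene of the factor CHOP, went from 131 and 163 to 411.5 (1.40 ± 0.13). The glutathione-degrading enzyme gene Chac1 went from 283 and 291 to 706 (1.25 ± 0.15), the pseudokinase gene Trib3 from 149 and 146 to 358 (1.19 ± 0.14) and Cebpb from 1801 and 1720 to 3736 (1.08 ± 0.11). Of 24 genes of the endoplasmic reticulum unfolded protein response 3 rose. The sensor gene Ern1 went from 79.0 and 74.4 to 346 (1.97 ± 0.10), Derl1 rose by 0.61 ± 0.09 (lowest of 4 probe sets 0.09) and the chaperone gene Dnajb9 by 0.59 ± 0.09. Of 17 NRF2 target genes 1 rose, the heme oxygenase gene Hmox1 (476 and 563 to 1072, 1.03 ± 0.15). That share is near the 5.07% of all genes tested that rose. Of 18 cytosolic heat shock genes 2 fell, with a median of -0.04. Besides Hspa1b this was Dnajb4, at 213 on medium, 360 and 372 on the controls and 108 with apilimod (-1.63 ± 0.11), while the other 16 lay between -0.32 and 0.16.

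The promoter of Chac1 is shown as the leading amino acid response gene with TGATGNAA, the C/EBP-ATF response element. It stood in 8 of the 25 list members with a promoter and in 6 of the 16 called ones, against 2.72% of all tested genes and 3.97% of all promoters. Capitals mark the match, on the reverse strand, which begins 193 bases before the start (chr2:119350992-119351241, plus strand).
Chac1: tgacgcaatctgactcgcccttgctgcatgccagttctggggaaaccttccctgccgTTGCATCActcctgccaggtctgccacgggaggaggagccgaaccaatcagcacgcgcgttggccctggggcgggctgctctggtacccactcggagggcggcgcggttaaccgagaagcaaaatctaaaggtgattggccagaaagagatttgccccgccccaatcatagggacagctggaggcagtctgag

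Secreted and surface proteins that remodel tissue changed in both directions. Of 15 genes of the plasminogen system and matrix 6 fell and 2 rose. Serpinb2, an inhibitor of plasminogen activators, read 5.2 on medium, 136 and 123 on the controls and 18.2 with apilimod (-2.09 ± 0.17). Timp1, an inhibitor of metalloproteinases, fell from 144 and 128 to 22.2 (-1.99 ± 0.18) and the matrix gene Tnc from 165 and 184 to 37.7 (-1.83 ± 0.14). Plau, which encodes urokinase, moved against its inhibitor: it read 1805 on medium, 1151 and 1328 on the controls and 4056 with apilimod (1.70 ± 0.15). The transglutaminase gene Tgm2 rose from 438 and 444 to 1477 (1.71 ± 0.17). Of 13 prostaglandin genes 3 fell and 1 rose. Ptgs2, the inducible synthase gene, read 188.5 on medium, 3529 and 3621 on the controls and 1499 with apilimod (-1.25 ± 0.13). The receptor gene Ptger4 fell from 371 and 397 to 128 (-1.48 ± 0.16), and Hpgds, which makes prostaglandin D2, rose from 176 and 189 to 597 (1.63 ± 0.14).

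Of 17 costimulatory and adhesion genes 6 fell and 2 rose. The activation marker gene Cd69 fell from 72.4 and 81.3 to 15.7 (-1.55 ± 0.13), the integrin gene Itga5 by 1.05 ± 0.10, the ICOS ligand gene Icosl by 1.01 ± 0.12 and Cd40 from 1483 and 1736 to 852.5 (-0.90 ± 0.12). Cd274, the PD-L1 gene, rose from 135 and 132 to 307 (1.11 ± 0.10), in contrast to the receptor gene Pdcd1. Of 22 macrophage receptors and identity genes 4 fell and 1 rose, and 2 fell with either control alone. Without the arrays of 22 h 7 fell and 3 rose. The transcription factor gene Maf was dim, at 27.0 on medium, 58.8 and 52.0 on the controls and 13.1 with apilimod (-1.29 ± 0.14), and its other probe sets reached 0.02. Itgam, the integrin CD11b gene, fell by 0.59 ± 0.10 and Cebpa by 0.74 ± 0.18, and the lectin receptor gene Clec4e rose by 0.56 ± 0.10. Of 12 osteoclast genes 4 fell and 3 rose. Acp5, the tartrate-resistant phosphatase gene, rose from 555 and 581.5 to 1256 (1.12 ± 0.09), and the gelatinase gene Mmp9 fell from 62.1 and 51.3 to 13.1 (-1.32 ± 0.21).

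Regulators of growth and survival also divided. Of 20 p53 target and BCL2 family genes 7 fell and 5 rose. The death receptor gene Fas read 49.6 on medium, 615 and 612 on the controls and 136 with apilimod (-2.05 ± 0.11). The antiproliferative gene Btg2 (412 and 403 to 128, -1.56 ± 0.13), the pro-apoptotic gene Bcl2l11 (581 and 576 to 221, -1.33 ± 0.11) and Gadd45a (225 and 236 to 90.6, -1.21 ± 0.10) fell too. Of 15 TGF-beta and BMP targets 4 rose and 4 fell. Within the Id family Id3 and Id1 (234 and 243 to 83.8, -1.35 ± 0.10) fell, and Id2 rose from 971 and 963 to 3679 (1.91 ± 0.11). The repressor gene Tgif1 rose by 1.39 ± 0.13, and the receptor gene Acvr1 fell by 0.95 ± 0.13. Of 25 genes on the list of FoxO targets and quiescence 4 rose and 4 fell, or 2 fell with R848+API09 as the only control. Tent5c, Sgk1 and Il7r were 3 of the rises, while Trib1 (-1.11 ± 0.17) and Klf2 (-1.09 ± 0.16) fell. Of 13 circadian genes 4 rose. Bhlhe40 went from 353 and 351.5 to 1329 (1.87 ± 0.11), Bhlhe41 rose by 0.93 ± 0.13, Nr1d2 by 0.88 ± 0.10 and Cry1 by 0.68 ± 0.15.

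Glycolysis and hypoxia genes held 3 rises and 1 fall among 23. Ndrg1 was the largest, the hexokinase genes Hk1 (0.55 ± 0.08) and Hk2 (0.47 ± 0.09) rose, and the peptide hormone gene Adm fell from 137.5 and 137.4 to 35.0 (-1.59 ± 0.15). Few genes of the cell cycle, ribosome and respiration lists were called. Of 24 mitosis genes, 26 ribosome biogenesis genes and 22 oxidative phosphorylation genes none was called with limma (2, 1 and 0 at an unadjusted p below 0.05), and all of their differences lay between -0.19 and 0.35. Their medians were 0.04, -0.08 and -0.08. Of 25 DNA replication genes 2 rose, while 5.07% of all genes tested rose. They were the licensing factor gene Cdt1 (1439 and 1435 to 3262, 1.17 ± 0.08) and Gins3 (73.4 and 74.5 to 124.5, 0.64 ± 0.10). On medium Cdt1 stood at 2979 and Gins3 at 192. Of 8 genes for nitric oxide, arginine and itaconate metabolism 1 rose, the cofactor synthesis gene Gch1 (946 and 974 to 1338, 0.47 ± 0.11). With R848+API09 as the only control 0 of them rose and 1 fell, and with R848 as the only control 0 rose and 0 fell. Nos2, the inducible nitric oxide synthase gene, was dim (26.6 and 23.0 against 37.2) and was not called (0.39 ± 0.19). Of 15 iron genes 2 rose, Hmox1 and the iron transporter gene Slc11a2 (474.5 and 430 to 778, 0.76 ± 0.10).

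**Figure D3:**
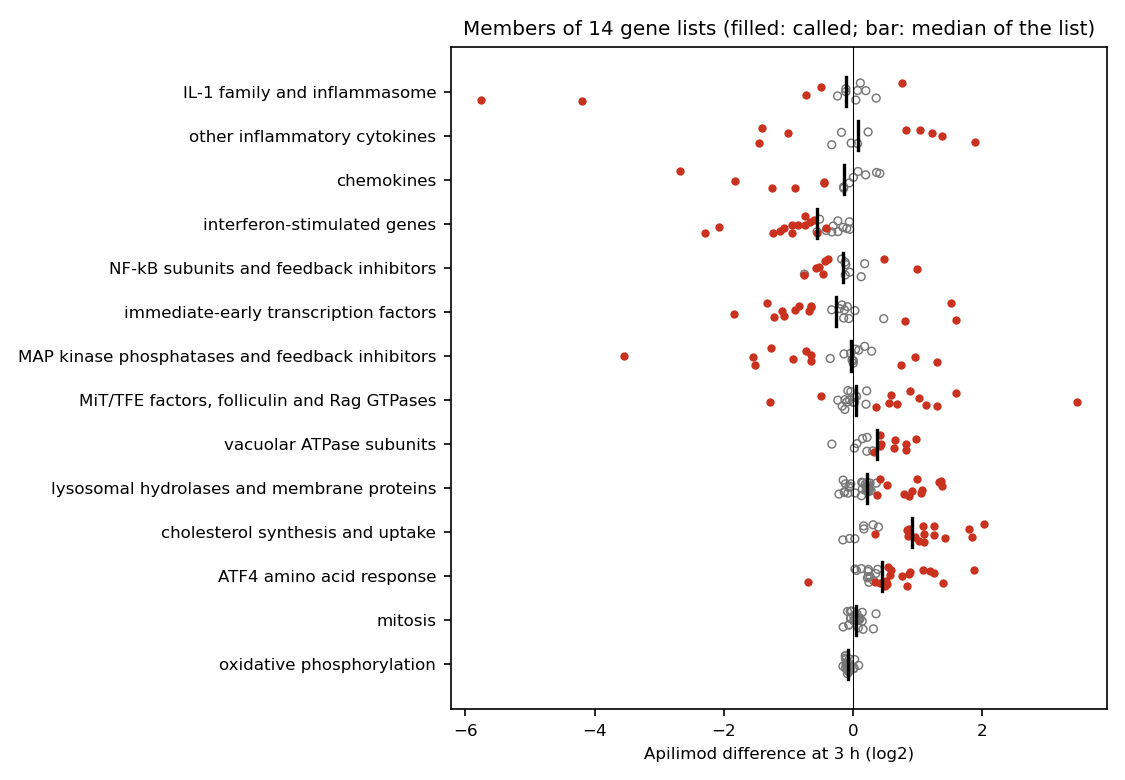
Apilimod difference at 3 h (log2 units, horizontal axis) of each tested member of 14 gene lists, with 1 point per gene; filled points were called, open points were not, and the bar is the median of the list. Cholesterol genes lie to the right with a median of 0.91, interferon-stimulated genes to the left with a median of -0.56, and the mitosis and oxidative phosphorylation genes stay around 0. Vertical offsets within a list only separate the points.

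The R848 response and the apilimod difference at 3 h share the control arrays, so their values are set side by side and no relation between them is drawn. R848 raised Il1b by 7.25 and apilimod left it 1.48 above medium. For Cxcl10 the values were 1.88 with R848 and 0.05 above medium with apilimod. For Ccl5 they were 5.09 and 2.40, for Ifit1 4.32 and 2.03, and for Fas 3.26 with R848 and 1.21 with apilimod. Of 25 interferon-stimulated genes 22 rose with R848 at 3 h, against 6.26% of all genes tested. Tnf was raised by 4.54 in the controls and stood 4.50 above medium with apilimod. Il10 stood 2.48 above medium in the controls and 3.85 with apilimod. Sgk1 and Lhfpl2 stood 1.42 and 1.74 below medium in the controls and 3.07 and 2.36 above it with apilimod.

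The effect was not yet called at 1 h. At that hour 0 genes (0%) passed in the limma fit, in which 165 had an unadjusted p below 0.05 and the lowest adjusted p was 0.114, and the median difference of the 622 genes that rose at 3 h was 0.01. A test of the difference between the hours called 625 genes (5.1% of those tested), among them 373 of the genes higher at 3 h and 249 of those lower. That test contains the 3 h difference itself, so its overlap with the lists of 3 h is in part built in. Hilpda was at 0.61 and Atf3 at 0.66 at 1 h, and Il1b at -0.89, none of them called. Most genes called at 3 h were also called at 7 h in the same direction, when 9.81% of the genes tested rose and 9.81% fell. Of the 622 genes higher at 3 h 497 were called higher at 7 h, which is 79.9% of the first list and 41.3% of the second. Of the 506 lower, 383 were called lower, or 75.7% and 31.8%. At 22 h, when 20.2% rose and 14.3% fell, the shared calls were 352 and 199, or 56.6% and 39.3% of the lists of 3 h and 14.2% and 11.3% of those of 22 h.

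The 7 h and 3 h differences were also tested against each other, and 581 genes differed (4.74% of those tested), 273 higher at 7 h (2.23%) and 308 lower (2.51%). Some early differences were smaller at 7 h. That of Fnip2 went from 3.46 to 1.20 (change -2.26), of Ndrg1 from 3.01 to 1.54 and of Cd207 from 2.51 to 1.20. The controls of Fnip2 rose from 242 and 248 at 3 h to 979 and 830 at 7 h, against 2866 and 2098 with apilimod. For Ndrg1 the controls went from 325 and 367 to 542 and 581, and the array with apilimod from 2898 to 1663. For Cd207 they went from 58.4 and 61.6 to 85.4 and 83.0, and with apilimod from 416 to 214. Tent5c (4.69 at 7 h) and Sgk1 (4.25) had changes of -0.07 and -0.25 that were not called. Ern1 went from 1.97 to 0.62 (change -1.34). Other rises grew: Pmp22, a myelin and membrane protein gene, from 1.90 to 4.02, the neuronal enolase gene Eno2 from 1.63 to 3.81, Atp6v0d2 from 0.82 to 2.96, Fabp3 from 1.86 to 3.47 and Gpnmb from 1.29 to 2.61. Mllt11 was at 0.16 at 3 h, not called, and at 2.11 at 7 h.

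Both heat shock falls were smaller by 7 h. Hspa1b was at -1.41 at 7 h, a change of 2.06, and Dnajb4 went from -1.63 to 0.28, a change of 1.91. Falls that deepened were those of Maf (-1.29 to -4.65), Serpinb2 (-2.09 to -5.16), the endothelial lipase gene Lipg (-0.87 to -4.00, with other probe sets up to 0.04 at 3 h) and Bcl3 (-0.53 to -2.73). Abca1 went from -1.06 to -3.28 and Abcg1 from -0.53 to -2.41. Il33, a cytokine gene dim on all arrays of 3 h (5.3 to 6.6), was at 0.04 at 3 h and at -3.40 at 7 h. Of the 622 genes higher at 3 h 18 were called lower at 7 h, and of the 506 lower 5 were called higher. Il10 was the largest of them, with 931 and 900 on the controls of 7 h and 47.9 with apilimod. At 22 h the opposite sign was called for 55 of the higher and 71 of the lower genes. The 22 h and 3 h differences themselves differed for 2797 genes (22.8% of those tested).

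**Figure D4:**
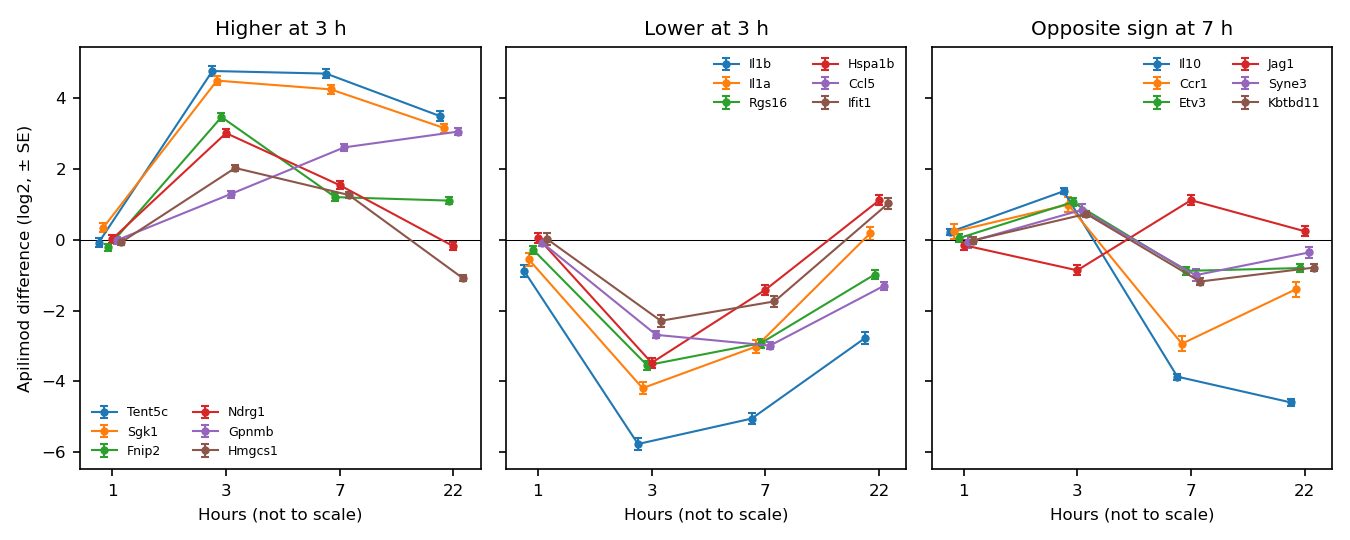
Apilimod difference (log2 units, vertical axis) at 1, 3, 7 and 22 h (horizontal axis, not to scale) for genes higher at 3 h, lower at 3 h and of opposite sign at 7 h. Points are the R848+apilimod array against the mean of 2 control arrays, and bars are standard errors of the fit. All curves start between -0.89 and 0.34 at 1 h, and Il10 runs from 1.37 at 3 h to -3.87 at 7 h.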

How the data were processed

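Expression was measured on 18 one-colour Affymetrix mouse arrays. The deposited values hold 1 intensity for each probe set and array, on a linear scale. That the authors had summarised and normalized them was read from the values themselves (array medians of 17.5 to 19.2). No source used here names the methods of background correction, summarisation and normalization, and limma appears in the submitters' processing notes without version or role.

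Of 45101 probe sets 34958 had 1 gene symbol in the platform annotation, 932 several and 9160, control probe sets aside, none; 34754 symbols were updated through Entrez identifiers. Probe sets brighter than 18.1, the median of the whole table, on 3 or more arrays were kept, and each gene took its brightest, which gave 12257 genes. Values were tested as log2(intensity + 16), which compresses dim genes, with limma 3.58.1 in R 4.3.3 and a mean for each arm and hour, except that R848 and R848+API09 shared 1 mean in each hour (5 residual degrees of freedom, median standard error 0.11). The lone R848+apilimod array is assumed to vary like these pairs. The code was tested on simulated data. The members and the 39 gene lists were chosen with earlier results of these data known. Genes that could be named came first from the 12 largest rises and falls called, chosen only where the R848+apilimod value lay outside both controls. Up to 5 members per list with the largest differences were added, and the 6 largest changes of each sign between 3 and 7 h. Sign changes and fixed genes completed the choice, and not all of these genes are described. Promoters came from RefSeq (GRCm38.p6), with 9933 of the tested genes matched by symbol.

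Alternatives were quantile normalization, median centring, no filter and a stricter one (75th percentile), pseudocounts of 1 and 64, the mean over probe sets, trended and robust variances, a minimum difference of 1, and left-out arrays.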

Additional observations from a re-analysis of the deposited data

Results flagged for a closer look

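For each gene given here the apilimod difference at 3 h was called and had the opposite called sign at a later hour, and the difference between the hours passed its own test (limma, Benjamini-Hochberg over all 12257 genes). Such genes were chosen for their opposite signs, so the test of the difference is not independent of the choice.

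Between 3 and 7 h the largest such change was in Il10, the interleukin-10 gene, which went from 1.37 to -3.87 (change -5.23, adjusted p = 3.05e-09). On the controls Il10 rose from 156.5 and 149 at 3 h to 931 and 900 at 7 h, whereas with apilimod it went from 420 to 47.9. The chemokine receptor gene Ccr1 went from 0.99 to -2.94 (change -3.93), and it stood at 1465 and 1432 on the controls of 7 h against 57.0 and 51.2 at 3 h. The repressor gene Etv3 went from 1.06 to -0.88 (change -1.94) and Kbtbd11 from 0.73 to -1.18 (change -1.91). The nuclear envelope gene Syne3 was at 0.84 at 3 h and lower by 7 h, with 58.3 and 79.0 on the controls against 26.0 with apilimod (change -1.84). Another probe set of Kbtbd11 was near 0 at 3 h, and another of Jag1 was at -0.05. The Notch ligand gene Jag1 moved the other way, from -0.86 to 1.12 (change 1.98), and its controls fell from 483 and 462 at 3 h to 85.3 and 70.2 at 7 h.

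Between 3 and 22 h Il10 fell further, to -4.59 (change -5.96). Hspa1b went from -3.47 to 1.11 (change 4.59), the cytokine gene Il15 from -1.42 to 1.07 (change 2.49) and the interferon-stimulated gene Ifit2 from -1.14 to 1.36 (change 2.50). The controls of Hspa1b fell from 543 and 480 at 3 h to 24.9 and 26.65 at 22 h. With apilimod Hspa1b read 31.4 and then 74.2, against 123 on medium at 22 h. For Il15 the controls went from 134 and 141 to 78.25 and 53.4, and the array with apilimod from 41.6 to 154. The sterol synthesis gene Hmgcs1 went from 2.03 to -1.08 (change -3.11), and the amino acid response gene Chac1 from 1.25 to -1.69 (change -2.94). The R848+API09 array of 22 h had the lowest upper quartile of all arrays (87.0), although its median intensity (19.2) was the highest. Without it the changes to 22 h were -5.96 for Il10, 4.62 for Hspa1b, 2.27 for Il15, 2.20 for Ifit2, -3.07 for Hmgcs1 and -3.08 for Chac1, and all 6 still passed.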

How the results depend on the processing

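No result changed direction under the 21 alternatives among the 167 genes named, 12 of which the stricter filter removed. Many of these alternatives could not change a direction at 3 h. Trended variances, the minimum difference and leaving out arrays of other hours alter only the spread or the cutoff, not the difference itself. A minimum difference of 1 lowered the counts at 3 h to 166 higher and 105 lower, and the counts of genes differing between hours to 256 (3 against 1 h), 209 (7 against 3 h) and 681 (22 against 3 h). Without the 22 h arrays 945 genes were lower at 3 h, and 1068 and 1181 differed for 3 against 1 h and 7 against 3 h. With the arrays of 0 and 3 h alone 1001 genes were higher and 1039 lower. With 1 array left out at a time, the counts ranged from 450 to 924 higher and from 317 to 945 lower at 3 h, from 463 to 1068 for 3 against 1 h, from 337 to 1181 for 7 against 3 h and from 1969 to 4961 for 22 against 3 h. The lowest values came from leaving out a control array of 3 h and the highest from leaving out a control array of 22 h. Under the other alternatives these counts stayed within 1.5 times those reported. Of the named genes called, 57 were below the minimum difference of 1. The mean over probe sets ended 7 calls (Abcg1, Atg9b, Atp6v0a1, Irf5, Nfkb2, Pikfyve and Tlr7). No filter and a pseudocount of 1 each ended 7, among them Rel, Il18, Eea1, Cebpa, Atp6v0d2 and Pikfyve in both, and Myd88, Nfkbie, Mcoln1 and Scd1 gained a call under at least 1 alternative. With 1 array per arm and hour, precision is limited by their number, and dim genes have compressed differences. No paired analysis was possible because each arm had 1 array at each hour and the medium arrays at 0 h alone carry replicate numbers.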
